A study of Mus musculus with 8 samples.

Results

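The nuclear genes of the mitochondrial respiratory chain were examined in mouse acute myeloid leukemia (AML). Members were taken by name from the gene-level count table: every row that begins with Nduf, Uqcr, Cox4i, Cox5, Cox6, Cox7, Cox8 or Atp5, together with Sdha, Sdhb, Sdhc, Sdhd and Cyc1. This gave 88 of 12823 rows. Of these, 36 encode subunits of complex I, 4 of complex II, 9 of complex III, 14 of complex IV and 15 of complex V, which makes 78 subunit genes. Ndufa4 was counted with complex IV, where its protein is known to sit. The other 10 rows encode assembly or associated factors that share the names. They are Ndufaf1 to Ndufaf7, Atp5sl, Atp5s and Cox7a2l. The rule uses gene names and no measured value.

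The samples were GFP-positive leukemia cells from mouse bone marrow, 4 libraries in each of 2 groups. New AML cells came from progenitors transduced with the MLL-AF9 fusion gene, on a construct that also makes GFP, after a first transplantation into sublethally irradiated recipients. Aggressive AML cells carry the same transgene and are described as derived from that leukemia by 5 rounds of transfer through mice that had not been irradiated. Both groups therefore share the fusion gene, the reporter and the sorting step, and by their descriptions differ in passage and in the conditioning of the host. The fusion gene was delivered by a retrovirus into bone marrow progenitors, and the labels do not say whether the replicates of a group are separate leukemias, so the p-values measure only the spread between these libraries.

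The respiratory chain passes electrons from NADH and succinate to oxygen and uses the energy to pump protons across the inner mitochondrial membrane. Complex I takes electrons from NADH, complex II takes them from succinate, complex III passes them to cytochrome c and complex IV reduces oxygen, while complex V, the ATP synthase, uses the proton gradient to make ATP. Myeloid leukemia cells are known to draw much of their ATP from this chain. The subunits made by the mitochondrial genome itself were not analysed here.

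Total counts ran from 7805544 to 9697777 per library. Hoxa9, a homeobox gene that MLL fusions are known to keep on, was read in every library at 292 to 358 CPM (reads of the gene, scaled to the library size). Of the 10 leukemia genes in its list 3 were higher in aggressive AML and 3 lower. The libraries also differed in ways that are no part of the chain. The 4 Y-linked genes Ddx3y, Eif2s3y, Kdm5d and Uty summed to 251 to 287 CPM in the new AML libraries and had 0 counts in all 4 aggressive AML libraries, where a count of 0 allows up to 3 counts of a gene. The groups thus may also differ in the animals the leukemias came from, and for every fold change given here a different origin and the passage history cannot be told apart. Of 14 tested neutrophil markers 9 were lower in aggressive AML, and the summed level of the list was 484 to 709 CPM in new AML against 277 to 342 CPM in aggressive AML. Macrophage markers summed to 367 to 481 CPM against 217 to 297 CPM, with 2 of 6 tested genes lower, and erythroid markers to 143 to 236 CPM against 122 to 157 CPM, with 3 of 9 lower. Tfrc, the highest gene of the erythroid list, was at 99.2 ± 14.1 and 97.7 ± 9.50 CPM. The median log2 fold change of the 9 tested erythroid genes was -1.02, with 0 estimates above 0. In B cell markers 1 of 3 tested genes was lower. Of 11 listed T cell markers 4 were tested, and of 10 NK cell markers 2. Bcl11b and Cd5 of the first list and Nkg7 of the second were higher, beside 8.15% of all tested genes. With 1 library left out in turn, these calls were kept in 1, 4 and 3 of 8 fits. Cd28 and Klrk1 had log2 fold changes of -0.19 and -0.37. The summed T cell levels overlapped, at 68.92 to 98.43 CPM in new AML against 58.05 to 109.6 CPM in aggressive AML. The NK cell sums also overlapped, at 14.98 to 27.75 CPM against 25.79 to 33.01 CPM. Of 2 megakaryocyte markers 0 were called by edgeR, with 1 higher and 1 lower at an unadjusted p under 0.05. The part of these cell types in the values below was not tested, and in bulk RNA fewer cells of a type and less RNA per cell cannot be told apart.

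Aggressive AML was compared with new AML to ask whether the chain genes change with serial passage. Of the 88 members 3 were higher in aggressive AML and 0 were lower, at an adjusted p under 0.05 in edgeR's quasi-likelihood test. This is 3.41% of the members. Over all 12494 tested genes the share was 18.4%, made up of 8.15% higher and 10.2% lower. The 3 genes were Ndufv3 and Ndufb6 of complex I and Cox7a2 of complex IV. DESeq2 called 7 of the 88 members higher and 0 lower, and it called 9.29% of all tested genes higher. At an unadjusted p under 0.05 in edgeR, 18 members were higher and 0 lower, and 15.3% of all tested genes were higher by that rule. All 88 members passed the filter on low counts.

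The estimated differences of the members were small, and most of them pointed upwards. The log2 fold change of aggressive over new AML was above 0 in 68 of 88 members, or 77.3%, against 50.1% of all tested genes. Its median was 0.12, with quartiles at 0.02 and 0.20, while the median of all tested genes was 0.0004. In absolute size the median log2 fold change was 0.13 over the members and 0.19 over all tested genes. A log2 change of at least 0.5 in either direction was seen in 2 members, Ndufv3 and Atp5l, and in 17.4% of all tested genes. The 2 groups were fully separated in 3 members, Ndufv3, Ndufb6 and Cox7a2l, against 21.8% of all tested genes.

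**Figure D1:**
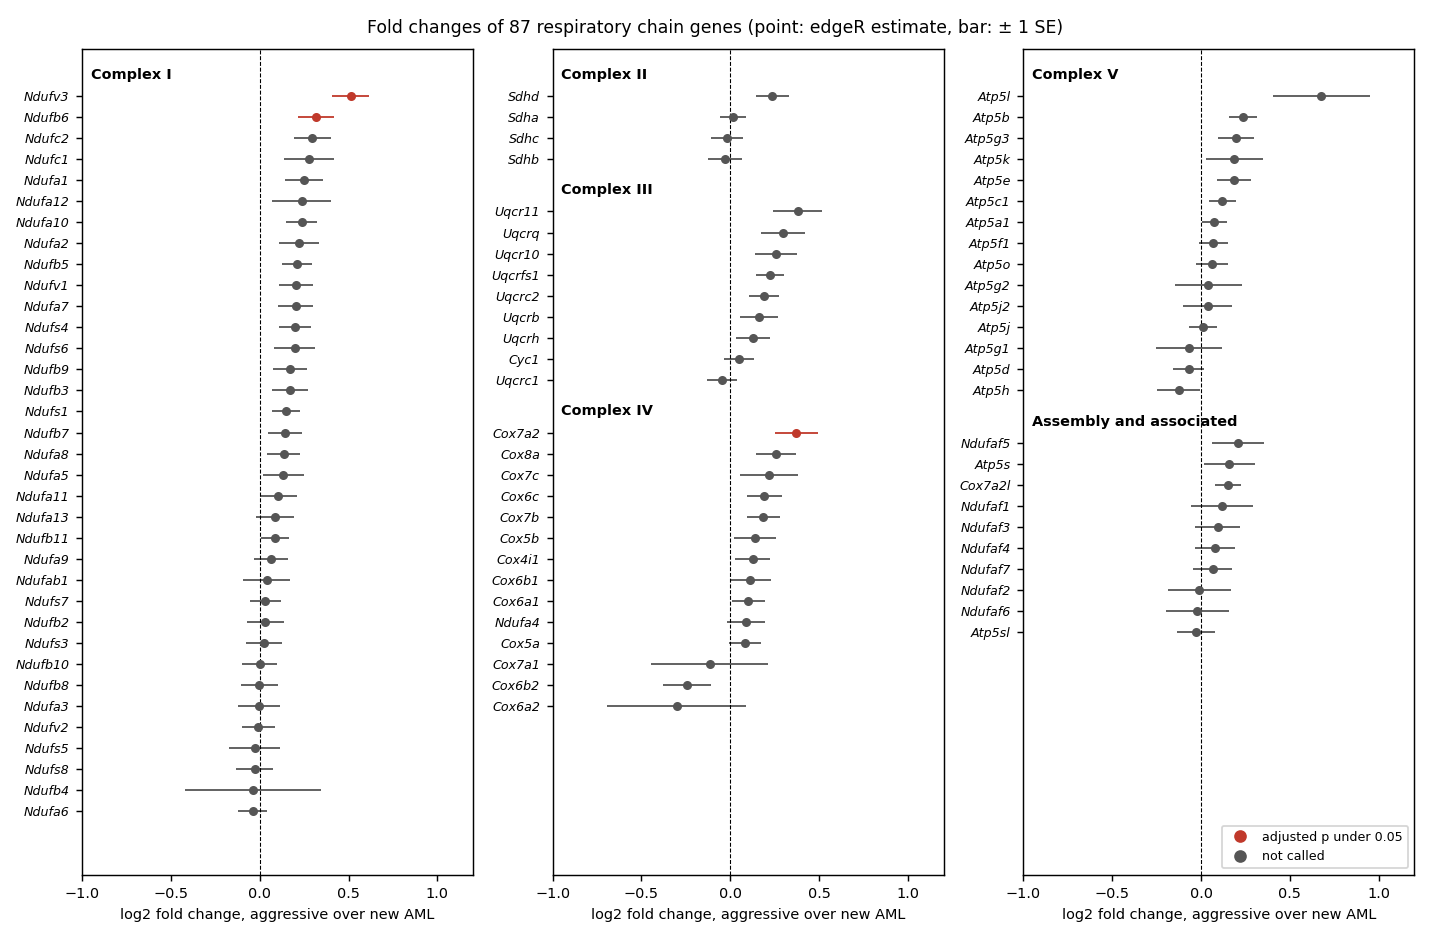
Log2 fold change of aggressive over new AML (x axis) for 87 of the 88 genes, grouped by complex and sorted within it. Points are edgeR estimates, bars are 1 SE on each side, and the 3 genes with an adjusted p under 0.05 are red. Most points lie to the right of 0, and only Ndufv3 and Atp5l pass 0.5.

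1 library of the new AML group differed from the other new AML libraries over most members. The library of new AML replicate 3 had the highest level of its group in 65 of 88 members, and aggressive AML replicate 1 had the highest of its group in 64. The median deviation of the members from their own mean, on the log2(CPM + 1) scale, was -0.10, -0.11, 0.12 (the library in question) and -0.15 in new AML replicates 1 to 4, and 0.18, 0.02, 0.10 and -0.04 in aggressive AML replicates 1 to 4. Its value thus lay within the range of the aggressive AML libraries. Without it, 21 members were higher and 0 lower, against 8.47% of all genes tested in that fit in the higher direction, 77 of 88 estimates were above 0 and their median was 0.18. By complex, 11, 1, 4, 4 and 1 genes of complexes I to V were higher in that fit, with log2 fold changes from 0.27 in Ndufb9 to 0.58 in Ndufv3, which were named after their values were seen. That library was singled out by its high values in these same members, so leaving it out raises most of their estimates by construction. The counts and p-values given here and below without it are therefore no separate result. The same fit with any other library left out gave 1 to 7 members higher, beside 5.12% to 8.44% of all genes tested in those fits. The number of members was 7 without aggressive AML replicate 4, 2 without aggressive AML replicate 3, and 1 without each of the remaining 5.

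Transcript length moved with these values. Members are short, with a median transcript length of 759 bases against 2563 bases over all tested genes, and 53 of 88 lie under 1000 bases. In 625 other genes under 700 bases the median deviation was -0.11, -0.07, 0.04 and -0.13 in new AML replicates 1 to 4 and 0.13, 0.04, 0.12 and 0.02 in aggressive AML replicates 1 to 4. Their median log2 fold change was 0.17, and 12.5% of them were called higher against 3.68% called lower. In 2729 other genes of at least 4000 bases the median was -0.05, with 7.48% called higher and 14.0% lower. With the trend on length removed in each library, 2 members were higher (Ndufv3 and Atp5b, beside 8.79% of all genes) and 1 was lower (Cox6b2), 55 of 88 estimates were above 0, and the median of the members fell from 0.12 to 0.05. With the trend removed and new AML replicate 3 left out, 5 were higher (Ndufs1, Ndufv3, Sdhd, Cox7a2 and Atp5b, beside 8.3% of all genes), 1 was lower (Cox6b2) and the median was 0.08.

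**Figure D2:**
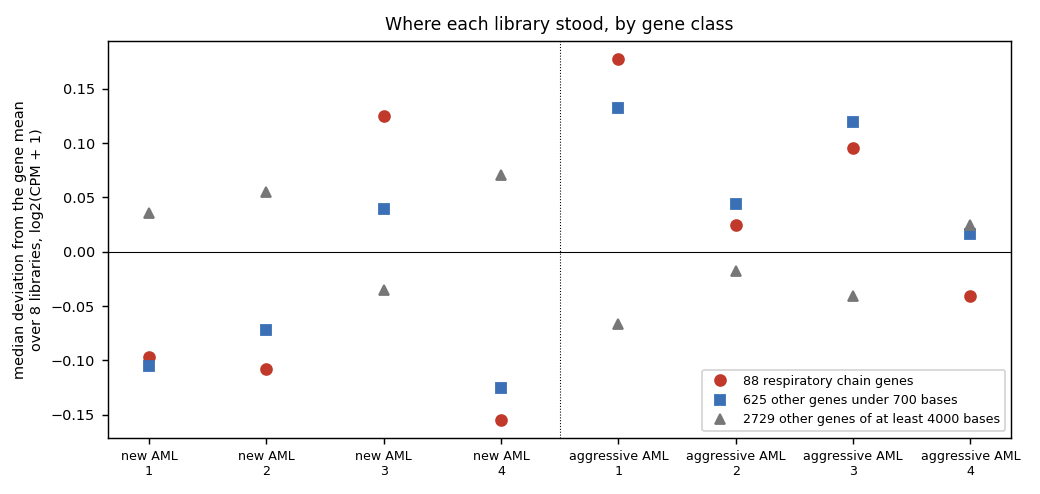
Median deviation of each library from the mean of a gene over 8 libraries, in log2(CPM + 1) (y axis), for the 88 chain genes, 625 other genes under 700 bases and 2729 other genes of at least 4000 bases. The chain genes and the short genes are above 0 in new AML replicate 3 and below 0 in the other new AML libraries, and the long genes run the opposite way there.

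Complex I is built of a hydrophilic arm that oxidizes NADH and a membrane arm that pumps protons. Of its 36 genes 2 rose, 0 fell, and 28 had an estimate above 0, with a median log2 fold change of 0.13.

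Ndufv3 encodes an accessory subunit of the NADH-binding module. It was read at 58.5, 51.4, 69.6 and 62.9 CPM in new AML replicates 1 to 4, and at 96.8, 76.3, 91.0 and 81.8 CPM in the aggressive AML replicates. Every aggressive AML library was above every new AML library. The means were 60.6 ± 7.66 and 86.5 ± 9.17 CPM (SD, n = 4 libraries each), and the log2 fold change was 0.51 with an SE of 0.10 (edgeR adjusted p = 0.00326). It was the only member that passed under all 20 alternative settings, with a log2 fold change of 0.39 to 0.58, and with the length trend removed it was 0.39 (adjusted p = 0.00772 by edgeR).

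Ndufb6, an accessory subunit of the membrane arm, was read at 42.3, 38.9, 43.8 and 35 CPM in new AML and 54.8, 48.3, 50.4 and 46.1 CPM in aggressive AML. The groups did not overlap, and the gap between the highest new and the lowest aggressive library was small. The log2 fold change was 0.32 with an SE of 0.10 (edgeR adjusted p = 0.0411). The call held without new AML replicate 3 or aggressive AML replicate 4 and was lost when any of the other 6 libraries was left out, with an adjusted p from 0.0321 to 0.123 over the 8 such fits, and with the length trend removed the log2 fold change was 0.18 (adjusted p = 0.172).

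The core subunits of complex I include those that carry its flavin and iron-sulfur clusters. None of Ndufv1, Ndufv2, Ndufs1, Ndufs3, Ndufs7 and Ndufs8 passed the test over the 8 libraries. Ndufv1, which holds the flavin, was at 90.6, 72.5, 89.1 and 91.6 CPM in new AML and 107, 105, 94.6 and 89.5 CPM in aggressive AML, with a log2 fold change of 0.20 (SE 0.09, edgeR adjusted p = 0.144). Replicate 2 was the low library of new AML, replicates 1 and 4 lay at the lower end of the aggressive AML range, and replicate 3 was just below it. Ndufs1, the largest iron-sulfur subunit, had a log2 fold change of 0.15 (SE 0.08). Ndufv2, Ndufs3, Ndufs7 and Ndufs8 lay between -0.03 and 0.03. Ndufab1, the mitochondrial acyl carrier protein, was at 13.9 ± 1.12 and 14.3 ± 0.946 CPM.

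Among the accessory subunits, Ndufc2, Ndufc1, Ndufa1, Ndufa12 and Ndufa10 had the next highest estimates, from 0.24 to 0.30, and were named after their values were seen. Ndufc2 was at 76.0, 67.0, 87.1 and 60.6 CPM in new AML and 91.1, 89.2, 96.2 and 81.1 CPM in aggressive AML. Only new AML replicate 3 overlaps the other group. The adjusted p was 0.0636 with all libraries and 0.0137 without that replicate (edgeR). The lowest estimate of the complex was -0.04, in Ndufa6 and Ndufb4.

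**Figure D3:**
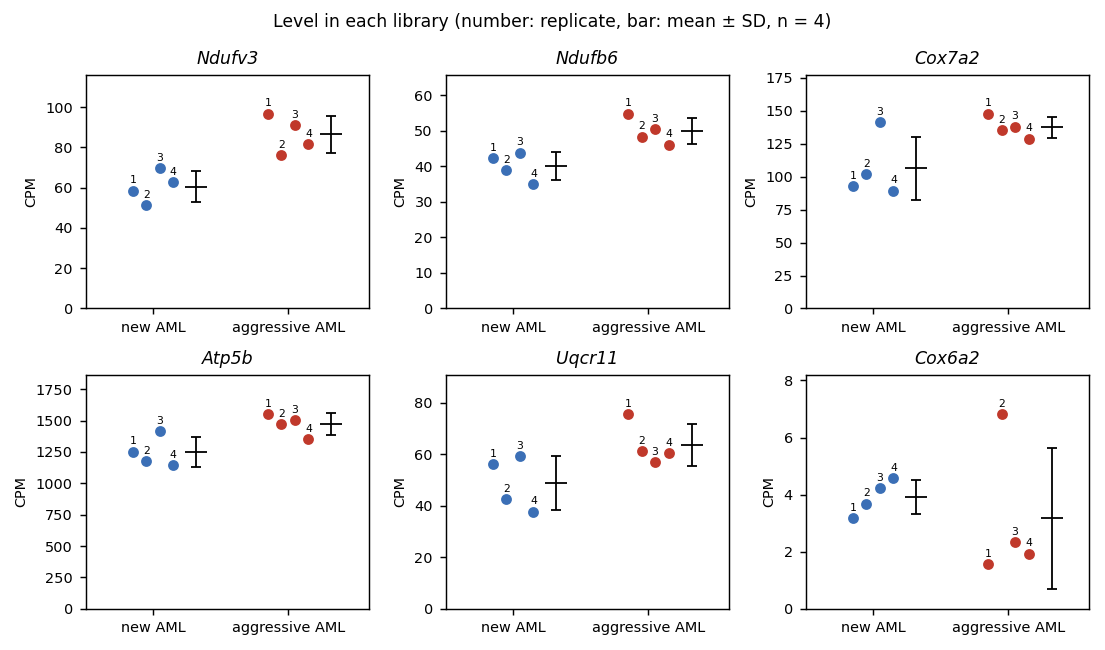
Levels in CPM (y axis, from 0) of 6 chain genes in each library, with the replicate number beside each point and the mean and SD of 4 libraries beside each group. Ndufv3 and Ndufb6 do not overlap between groups, new AML replicate 3 sits among the aggressive AML libraries for Cox7a2 and Atp5b, and the aggressive AML value of Cox6a2 rests on replicate 2.

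Complex II, succinate dehydrogenase, also works in the citric acid cycle and has no subunit from the mitochondrial genome. Of its 4 genes 0 were called by edgeR and 0 by DESeq2. At an unadjusted p under 0.05 in edgeR 1 was higher, beside 15.3% of all tested genes. The median log2 fold change was -0.003. Sdhd, a membrane anchor, was at 157, 154, 202 and 163 CPM in new AML and 214, 192, 209 and 182 CPM in aggressive AML. As in Ndufc2, new AML replicate 3 lay within the range of the other group. The log2 fold change was 0.24 (SE 0.09, edgeR adjusted p = 0.0918), and without that replicate it was 0.33 (edgeR adjusted p = 0.0114). The flavoprotein Sdha was at 305 ± 9.34 and 308 ± 27.4 CPM, with a 95% interval of the log2 fold change from -0.13 to 0.16. The iron-sulfur subunit Sdhb and the second anchor Sdhc had estimates of -0.03 and -0.02.

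Complex III had the highest median of the 5 complexes, at 0.19, with 8 of 9 estimates above 0. Of its genes 0 were called by edgeR and 2 by DESeq2, which called 8.15% and 9.29% of all tested genes higher. At an unadjusted p under 0.05 in edgeR 5 were higher, beside 15.3% of all tested genes. Uqcr11, a small accessory subunit, had the largest estimate. It was read at 56.1, 42.6, 59.2 and 37.8 CPM in new AML and 75.8, 61.2, 57.0 and 60.5 CPM in aggressive AML. Only aggressive AML replicate 3 fell within the range of new AML. The log2 fold change was 0.38 (SE 0.14, edgeR adjusted p = 0.0682). Uqcrfs1, the Rieske iron-sulfur protein, was at 114, 111, 128 and 110 CPM against 144, 131, 141 and 126 CPM, with a log2 fold change of 0.22 (SE 0.08, edgeR adjusted p = 0.0634). The core subunit Uqcrc2 had 0.19 (SE 0.08), the heme protein Cyc1 0.05 (SE 0.08), and Uqcrc1, the gene of the complex with the highest CPM, -0.05 (SE 0.09). Without new AML replicate 3, Uqcr11, Uqcrq, Uqcr10 and Uqcrfs1 were higher in aggressive AML, with log2 fold changes of 0.27 to 0.48. With the length trend also removed none of these was called, with edgeR adjusted p from 0.0553 in Uqcrfs1 to 0.177 in Uqcr11. In all libraries with the length trend removed, Uqcr11 had a log2 fold change of 0.22 (edgeR adjusted p = 0.231).

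Complex IV, cytochrome c oxidase, has several subunits with alternative genes. Of its 14 measured genes 1 rose and 0 fell, beside 8.15% and 10.2% of all tested genes. An estimate above 0 was seen in 11, with a median of 0.12 over the complex. Cox7a2, the form of subunit 7a that is known outside heart and skeletal muscle, was read at 93.0, 102, 141 and 89.4 CPM in new AML and 148, 135, 138 and 129 CPM in aggressive AML. New AML replicate 3 was above 3 of the 4 aggressive AML libraries, and the other new AML libraries were below all of them. The means were 106 ± 23.9 and 137 ± 7.89 CPM, and the log2 fold change was 0.37 with an SE of 0.12 (edgeR adjusted p = 0.045). Without new AML replicate 3 it was 0.54 (edgeR adjusted p = 0.000715), it also held without aggressive AML replicate 4, and the call was lost when any of the other 6 libraries was left out, up to an adjusted p of 0.137. With the length trend removed the log2 fold change was 0.26 (edgeR adjusted p = 0.0818). The gene overlaps Gm51685 and Tmem30a, the second at 136 ± 9.88 and 146 ± 6.26 CPM, and the strand setting of the counting was not stated, so the reads of these genes may not be fully separated.

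The main nuclear-encoded subunits besides Cox7a2 were not called. Cox4i1, the regulatory subunit with the highest CPM of the complex, was at 337 ± 40.8 and 367 ± 44.5 CPM, with a log2 fold change of 0.12 (SE 0.10). Cox5a had 0.08 (SE 0.09), Cox5b 0.14 (SE 0.12), Cox6c 0.19 (SE 0.10) and Cox7c 0.22 (SE 0.16). Cox8a, a small membrane subunit, was at 249, 244, 324 and 223 CPM against 343, 290, 341 and 268 CPM, so that new AML replicate 3 again lay among the aggressive AML libraries. Its log2 fold change was 0.26 (SE 0.11, edgeR adjusted p = 0.125). Ndufa4 was at 161 ± 27.2 and 172 ± 14.1 CPM.

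The muscle and testis forms of these subunits had the only estimates of complex IV below 0. Cox6a2, the muscle form of subunit 6a, was read at 3.18, 3.69, 4.24 and 4.57 CPM in new AML and 1.57, 6.83, 2.33 and 1.93 CPM in aggressive AML. Its log2 fold change was -0.30 (SE 0.39, edgeR adjusted p = 0.632). Without aggressive AML replicate 2 it was -1.01 (edgeR adjusted p = 0.0418), the only 1 of the 8 such fits in which the gene was called. That library held the highest value of the gene, so leaving it out lowers the estimate by construction and is no separate result. Cox6a2 also overlaps Itgad, and the strand setting of the counting was not stated. Cox6b2, known from testis, was at 29.5, 27.1, 22.3 and 29.2 CPM against 27.3, 22.4, 23.1 and 18.6 CPM. Its log2 fold change was -0.24 (SE 0.14, edgeR adjusted p = 0.23), and -0.43 with the length trend removed (edgeR adjusted p = 0.0467). Cox7a1, the muscle form of subunit 7a, stayed between 1.36 and 3.37 CPM.

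The shares of the alternative forms overlapped between the groups in every family. Cox6a1 took 98.3% ± 0.363 of the counts of its pair with Cox6a2 for new AML and 98.7% ± 1.15 for aggressive AML (SD, n = 4). Cox6b1 took 85.2% ± 3.502 and 88.4% ± 0.592 of its pair with Cox6b2. Cox7a2 took 40.0% ± 5.64 and 44.0% ± 1.88 of the 7a family, where most of the rest was Cox7a2l, a factor known to join complexes III and IV. Atp5g3 took 91.2% ± 0.383 and 92.3% ± 0.770 of the counts of the 3 genes for subunit c of the ATP synthase. These shares are of reads and not corrected for length. Of the 50-base windows of the transcripts, 87.4% in Atp5g2, 10.6% in Atp5g1 and 0% in Atp5g3 also occur at another locus. The sources used here do not say how reads with several places in the genome were counted. Reads of Atp5g2 and Atp5g1 may thus be missing, and the share of Atp5g3 is uncertain.

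Complex V makes ATP with a catalytic head and a membrane rotor. Of its 15 genes 0 were called by edgeR and 1, Atp5b, by DESeq2, which called 9.29% of all tested genes higher. At an unadjusted p under 0.05 in edgeR 2 were higher, beside 15.3% of all tested genes. The median log2 fold change was 0.07, with 12 estimates above 0. Atp5b, the catalytic beta subunit and the most highly read member of all, was at 1253, 1176, 1419 and 1148 CPM in new AML and 1554, 1474, 1503 and 1351 CPM in aggressive AML. Of the new AML libraries, replicate 3 was above aggressive AML replicate 4, and the other new AML libraries were below all aggressive AML libraries. The log2 fold change was 0.24 with an SE of 0.08 (edgeR adjusted p = 0.0507). The gene passed the threshold under 13 of 20 alternatives, among them the fit without the length trend (adjusted p = 0.0362 by edgeR) and DESeq2 (adjusted p = 0.0245). It passed in only 2 of the 8 edgeR fits with 1 library left out, where the adjusted p reached 0.163.

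The alpha subunit Atp5a1, which forms the head with beta, was at 1016 ± 61.7 and 1069 ± 52.7 CPM, with a log2 fold change of 0.07 (SE 0.07). The other head subunits Atp5c1, Atp5d and Atp5e had 0.12 (SE 0.08), -0.07 (SE 0.09) and 0.19 (SE 0.09), and the stalk subunits Atp5f1 and Atp5o had 0.07 (SE 0.08) and 0.06 (SE 0.09). The largest estimate of all members was that of Atp5l, a subunit of the membrane part, at 3.797, 2.38, 2.45 and 3.01 CPM against 6.26, 3.89, 5.18 and 3.41 CPM. Its log2 fold change was 0.68 with an SE of 0.27 (edgeR adjusted p = 0.0988). The level is low and the groups overlap, and 68.5% of the 50-base windows of its transcripts occur at another locus.

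The 10 assembly and associated factors had a median log2 fold change of 0.09. Of these 0 were called by edgeR and 0 by DESeq2, and 0 had an unadjusted p under 0.05 in edgeR. Cox7a2l was at 144, 158, 152 and 167 CPM in new AML and 170, 172, 169 and 179 CPM in aggressive AML. The groups did not overlap, by a narrow gap, and the log2 fold change was 0.15 (SE 0.07, edgeR adjusted p = 0.155).

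Summed over the genes of a complex, the levels overlapped between the groups in all 5 complexes. All 78 subunit genes summed to 9732, 9418, 11287 and 9129 CPM in new AML and 11827, 10498, 11016 and 10091 CPM in aggressive AML. New AML replicate 3 was above 3 of the 4 aggressive AML libraries, and all other new AML libraries were below every aggressive AML library. The ratio of the group means was 1.10 for all subunits, 1.10 for complex I, 1.04 for complex II, 1.11 for complex III, 1.11 for complex IV and 1.10 for complex V. Without new AML replicate 3 the ratio for all subunits was 1.15. The subunit genes took 0.925% to 1.17% of the counts of a library.

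Per length of transcript, the chain genes differed widely in level. In CPM per kb of the median transcript length, over all 8 libraries, the median gene of complex I was at 81.5, of complex II at 91.3, of complex III at 126, of complex IV at 188 and of complex V at 201. Atp5b was the highest at 710 CPM per kb and Cox8a followed among the subunits of complex IV at 519 CPM per kb. In complex I the highest was Ndufa6 at 187 CPM per kb, in complex II Sdhd at 150 CPM per kb, and in complex III Uqcrh at 291 CPM per kb. With the longest transcript of each gene instead, the medians of complexes I to V were 70.2, 91.3, 97.0, 188 and 159 CPM per kb, so that complexes IV and V changed places, and in complex I Ndufa2 was the highest at 172 CPM per kb, with Ndufa6 at 121. By the median length the lowest were Ndufb4 at 1.70, Atp5g1 at 4.41 and Cox6a2 at 5.21 CPM per kb. Subunits of 1 complex stand in fixed ratios in the protein, and the read levels of complex I spanned a 110-fold range.

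Genes whose sequence is repeated elsewhere had a lower median level. In 10 subunit genes at least 25% of the 50-base windows also occur in a transcript of another locus, and their median was 25.9 CPM per kb. The 43 subunit genes with 0% of windows shared had a median of 114 CPM per kb, and the 25 genes between these limits had 138 CPM per kb. Atp5g2, with 87.4% of windows shared, was at 12.2 CPM per kb, Atp5l with 68.5% at 6.98, Atp5h with 47.9% at 35.7 and Ndufb4 with 37.0% at 1.70 CPM per kb. How reads with several places in the genome were counted is not given in the sources used here, so the levels of these genes are uncertain. For Ndufv3, Ndufb6 and Cox7a2 the share of such windows was 0%.

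**Figure D4:**
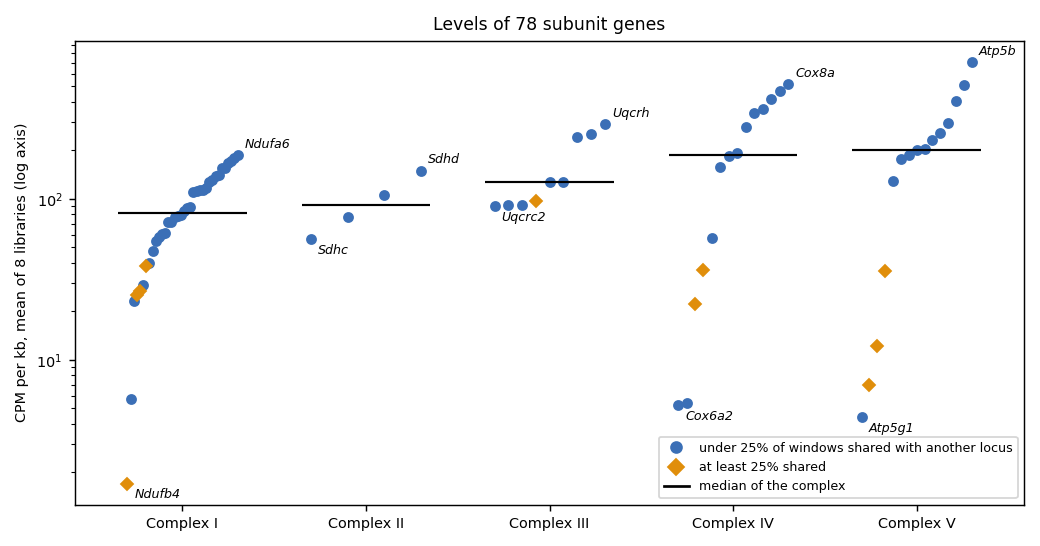
Mean level over 8 libraries in CPM per kb of transcript (y axis, log scale) of the 78 subunit genes, sorted within each complex, with the median of the complex as a line. Orange diamonds are the 10 genes with at least 25% of 50-base windows shared with another locus, which have a median of 25.9 CPM per kb.

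Many nuclear genes of the chain are known to be driven by the factors NRF1 and GABP, an ETS family protein, and some by YY1. Because the estimates of the members pointed largely the same way, their promoters were searched for the NRF1 motif (the letters in capitals in the 7 short stretches printed here, with any base at the sixth place), CCGGAAG (ETS) and AAGATGGCG (YY1), on both strands, from 250 bases before to 50 bases after a start site of the gene as RefSeq lists it. RefSeq promoters of build GRCm38.p6 were matched for 74 of 88 members, 80 promoters in all. The NRF1 letters were in 20 of the 80 promoters, or 25%, against 4.6% of all 32851 promoters. The ETS letters were in 17 or 21.2%, against 8.86%, and the YY1 letters in 9 or 11.2%, against 1.4%. At least 1 of the motifs was in 40 promoters, or 50%, against 13.6% of all, and no match of 1 motif overlapped a match of another. The median GC content was 58.5% in the member promoters and 52.7% in all promoters. A match describes these letters only and is not a bound site.

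In RefSeq of build GRCm38.p6, Ndufv3 (gene ID 78330) spans chr17:31520115-31531326, Ndufb6 (gene ID 230075) chr4:40270591-40279421 and Cox7a2 (gene ID 12866) chr9:79755241-79771422. The promoters of the 3 members that rose are shown because they are the called genes, with motif matches in capitals. Ndufv3 is at chr17:31519865-31520164 on the plus strand, Ndufb6 at chr4:40279372-40279671 on the minus strand and Cox7a2 at chr9:79759804-79760103 on the minus strand, each read 5′ to 3′ along the gene. The windows of Ndufv3 and Ndufb6 stand on the outer start of the gene. That of Cox7a2 stands on an inner start, 11569 bases inside the RefSeq span and 25 bases from the start of the gene in GENCODE vM21, and the outer RefSeq start was not analysed here. Of the 80 promoters, 58 stand on the outer start and 5 lie more than 1000 bases inside the span. Ndufb6 holds an ETS match, and the other promoters hold none of the 3 motifs in this window.
Ndufv3: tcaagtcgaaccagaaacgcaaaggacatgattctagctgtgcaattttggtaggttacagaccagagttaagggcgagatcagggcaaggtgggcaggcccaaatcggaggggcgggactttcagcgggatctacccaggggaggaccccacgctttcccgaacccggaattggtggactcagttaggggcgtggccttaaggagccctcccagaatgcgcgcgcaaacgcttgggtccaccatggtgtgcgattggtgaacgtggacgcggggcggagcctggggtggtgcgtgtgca
Ndufb6: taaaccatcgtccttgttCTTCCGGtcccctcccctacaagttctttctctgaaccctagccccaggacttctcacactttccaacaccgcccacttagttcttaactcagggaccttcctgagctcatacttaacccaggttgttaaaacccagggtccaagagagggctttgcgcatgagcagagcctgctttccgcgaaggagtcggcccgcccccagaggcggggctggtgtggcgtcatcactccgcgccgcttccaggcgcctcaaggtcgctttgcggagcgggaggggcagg
Cox7a2: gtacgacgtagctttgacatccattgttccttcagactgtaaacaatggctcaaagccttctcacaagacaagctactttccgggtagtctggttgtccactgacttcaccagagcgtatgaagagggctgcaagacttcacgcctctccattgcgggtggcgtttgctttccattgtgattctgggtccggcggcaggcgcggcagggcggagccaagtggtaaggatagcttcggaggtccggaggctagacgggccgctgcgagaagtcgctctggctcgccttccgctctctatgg

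Of the members with the NRF1 letters, 7 hold a match that reads the same on both strands. It is shown in capitals with 10 bases on each side, in the direction of the gene. The stretches are at chr2:140170652-140170681 (Ndufaf5, plus strand), chr4:24897960-24897989 (Ndufaf4, plus), chr17:56717692-56717721 (Ndufa11, plus), chr9:108936668-108936697 (Uqcrc1, plus), chr5:115349101-115349130 (Cox6a1, minus), chr5:108434430-108434459 (Atp5k, minus) and chr15:102671070-102671099 (Atp5g2, minus).
Ndufaf5: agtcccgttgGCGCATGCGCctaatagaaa
Ndufaf4: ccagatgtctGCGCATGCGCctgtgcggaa
Ndufa11: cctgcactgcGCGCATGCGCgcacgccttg
Uqcrc1: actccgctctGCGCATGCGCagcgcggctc
Cox6a1: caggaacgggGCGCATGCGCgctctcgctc
Atp5k: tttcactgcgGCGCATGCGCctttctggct
Atp5g2: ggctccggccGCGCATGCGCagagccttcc

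None of the genes Nrf1, Gabpa and Yy1 passed the test. Spi1, an ETS family gene of the leukemia list, fell from 260 ± 5.46 to 218.5 ± 9.54 CPM (edgeR adjusted p = 0.0159, up to 0.0524 over the alternatives). Further genes of that family were not examined here. Nrf1 was at 82.3 ± 2.07 and 80.3 ± 5.76 CPM (log2 fold change -0.04, SE 0.08), Gabpa, the DNA-binding part of GABP, at 106 ± 5.32 and 114 ± 4.50 CPM (0.10, SE 0.07), and Yy1 had an estimate of -0.02 (SE 0.08). Esrra, an orphan receptor that drives mitochondrial genes, had 0.06 (SE 0.10), and the coactivators Ppargc1b and Pprc1 had 0.43 (SE 0.21) and 0.17 (SE 0.10). Of the 13 regulators tested, 2 fell and 0 rose. Ppard, a fatty acid receptor, fell from 37.7 ± 1.46 to 23.2 ± 3.94 CPM (edgeR adjusted p = 0.00105), and Creb1, the cAMP response factor, from 168 ± 7.98 to 139 ± 17.7 CPM (edgeR adjusted p = 0.0443, up to 0.12 over the alternatives).

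Other genes that serve the chain were counted from lists of known roles, to be read beside the 8.15% of all tested genes that were higher and the 10.2% that were lower. Of 43 further assembly factors 0 were called, with a median log2 fold change of 0.04, and of 19 genes for maintenance and transcription of mitochondrial DNA 0 were called, with a median of -0.06. DESeq2 called 0 in both lists, and at an unadjusted p under 0.05 in edgeR 1 assembly factor was higher and 3 lower, and 1 gene of the second list was higher and 2 lower. Tfam, which packages that DNA, was at 53.1 ± 2.34 and 51.3 ± 2.35 CPM. Of 13 genes for coenzyme Q and cytochrome c 1 rose. It was Pdss1, for the side chain of coenzyme Q, from 17.4 ± 1.81 to 23.2 ± 3.07 CPM (edgeR adjusted p = 0.0418, up to 0.137 over the alternatives). Cycs, cytochrome c itself, was at 73.5 ± 16.2 and 82.4 ± 12.3 CPM.

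Carriers and regulators at the end of the chain moved in both directions, with 1 of 7 tested genes higher and 1 lower. Ucp2, an inner membrane carrier of the uncoupling protein family, fell from 839 ± 100 to 601 ± 29.2 CPM, with groups that did not overlap (edgeR adjusted p = 0.00114, at most 0.00688 over the alternatives). Slc25a4, an ADP/ATP carrier, rose from 139 ± 15.7 to 170 ± 5.84 CPM (edgeR adjusted p = 0.0225, up to 0.0757 over the alternatives, and kept in 3 of 8 fits with 1 library left out). The second carrier Slc25a5 was at 601 ± 52.9 and 704 ± 59.0 CPM (edgeR adjusted p = 0.064), and Atpif1, the inhibitor of the ATP synthase, at 154 ± 20.1 and 180 ± 16.5 CPM (edgeR adjusted p = 0.119). Of 12 genes of cristae and supercomplexes 2 rose. They were Opa1, from 95.5 ± 3.77 to 114 ± 5.97 CPM (edgeR adjusted p = 0.0257, up to 0.0827 over the alternatives), and Apool, from 18.5 ± 3.45 to 24.9 ± 0.698 CPM (edgeR adjusted p = 0.0381, up to 0.116 over the alternatives). With 1 library left out in turn, the call of Opa1 was kept in 4 of 8 fits and that of Apool in 1 of 8.

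Of 7 genes known to turn respiration down or remodel it in low oxygen 4 rose and 0 fell, where 8.15% of all tested genes were higher. The list was chosen with earlier results of these data known, so this share is no independent result. Pdk1, a kinase that blocks entry of pyruvate into the citric acid cycle, rose from 56.0 ± 0.721 to 81.7 ± 2.65 CPM (edgeR adjusted p = 0.000164). Bnip3, a receptor for removal of mitochondria, rose from 13.2 ± 2.57 to 24.9 ± 6.43 CPM (edgeR adjusted p = 0.00289). Mxi1, a repressor of MYC targets, rose from 78.2 ± 7.41 to 107 ± 12.1 CPM (edgeR adjusted p = 0.00499). Lonp1, a matrix protease, rose from 133 ± 7.24 to 157 ± 4.84 CPM (edgeR adjusted p = 0.0324, up to 0.104 over the alternatives, and kept in 3 of 8 fits with 1 library left out). Each of the 4 had fully separated groups, as had 21.8% of all tested genes in either direction.

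**Figure D5:**
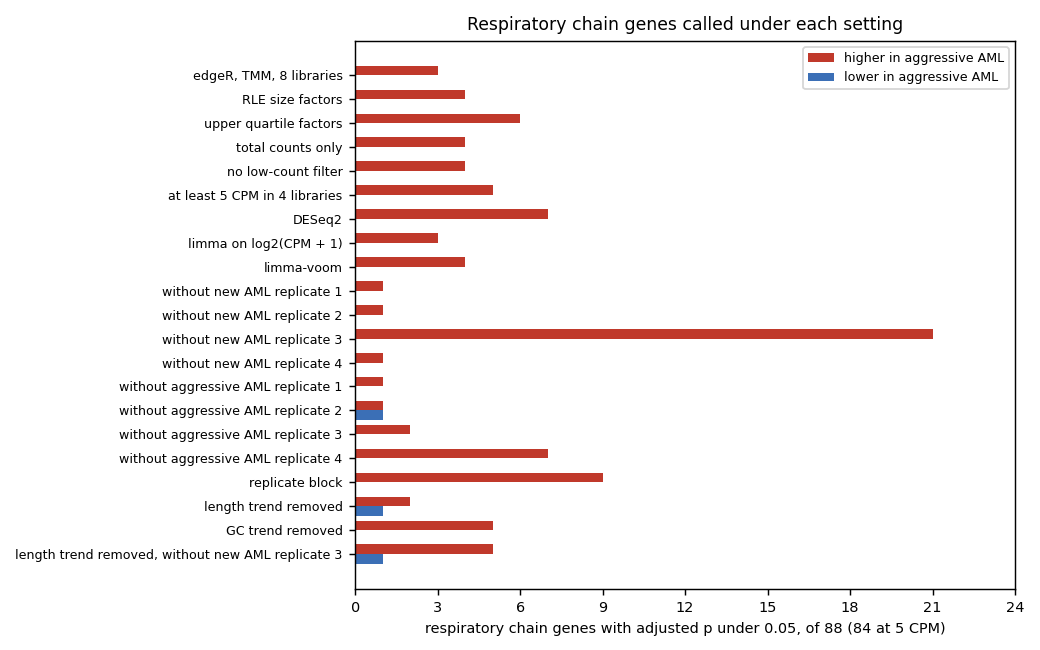
Number of chain genes with an adjusted p under 0.05 (x axis), higher (red) or lower (blue) in aggressive AML, under the edgeR fit with 8 libraries and each alternative. The count is 3 with 8 libraries and 21 without new AML replicate 3, and 0 or 1 gene is lower under every setting.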

How the data were processed

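RNA of 8 libraries was analysed, 4 of newly generated and 4 of aggressive MLL-AF9 leukemia cells, grouped and numbered from the labels, which give no batch. The authors purified polyadenylated RNA, sequenced both ends, aligned reads to mm10 with HISAT2, counted them per gene with Rsubread and removed genes under 1 CPM. The table the authors deposited is named for CPM but holds whole-number read counts whose totals vary by library, and was used as counts. The annotation and strand setting are not given in the sources used here, so the 28 members that overlap another gene are uncertain.

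Counts were tested in edgeR 4.0.16 (R 4.3.3) with TMM factors, a quasi-likelihood F test on group alone, a filter of at least 1 CPM in at least 4 libraries (329 rows left out) and Benjamini-Hochberg adjustment over 12494 genes, at 0.05, two-sided. Standard errors were the fold change over the root of F, and 95% intervals are 1.96 SE on each side. The fit was tested on simulated counts. Alternatives were RLE, upper quartile and total-count scaling, no filter or 5 CPM, DESeq2 1.42.0, limma 3.58.1 on log2(CPM + 1), limma-voom, each library left out, a replicate block, and loess trends (span 0.5) on transcript length or GC content removed per library. Length removal without new AML replicate 3 was added after the data were seen. Lengths are medians of basic coding transcripts of GENCODE vM21, and shared 50-base windows were counted against all its transcripts.

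Members, lists and named genes were chosen with earlier results of these data known. Named were called members, the highest and the most changed of each complex, core subunits, alternative forms, called genes and chosen regulators of other lists, and the genes stated as seen afterwards. The values of 1 member are not reported here. Figures were drawn with matplotlib 3.10.9.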

Additional observations from a re-analysis of the deposited data

Results flagged for a closer look

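In a group of 4 libraries, 1 value stood apart from the other 3 by more than Dixon's 95% limit on the gap over the range in 11 of 186 groups examined. Chance gives about 1 in 20. New AML replicate 3 was the high value in 6 of the 11. There Ndufs6 was at 73.0 CPM (52.9 to 56.2 in the other new AML libraries), Cox6c at 189 CPM (144 to 149), Ndufv2 at 113 CPM (88.3 to 89.1), Atp5c1 at 326 CPM (267 to 275), Ndufa9 at 120 CPM (94.9 to 97.0) and Ndufa3 at 98.0 CPM (69.7 to 73.2). In the other new AML libraries, Cyc1 was low in replicate 4 at 120 CPM (141 to 145 in the others), and Ndufv1 was low in replicate 2 at 72.5 CPM (89.1 to 91.6). In aggressive AML, replicate 1 was high for Sdhc at 123 CPM (106 to 108) and for Atp5o at 185 CPM (152 to 157), and replicate 2 was high for Cox6a2 at 6.83 CPM (1.57 to 2.33). The cause of these values was not tested.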

How the results depend on the processing

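Of the recomputed counts, medians and ratios 490 kept to within 1.5 times (counts) or the spread between libraries, 96 moved further, and 0 reversed. For single named genes, 15 recomputed calls were lost and 37 gained. The members higher in aggressive AML were 3, and 6 with upper quartile factors, 5 at 5 CPM, 7 with DESeq2, 9 with the replicate block, 5 without the GC trend, and 5 without the length trend and new AML replicate 3. Of all genes tested, 8.15% were higher in the main fit. In the alternatives just named the shares were 9.04%, 9.06%, 9.29%, 8.03%, 9.04% and 8.3%, in the same order. With 1 library left out the members higher ran from 1 to 21, beside 5.12% to 8.47% of all genes. Members lower were 0, 1 without the length trend (with all libraries and with 7), and 0 to 1 with 1 library left out, all in complex IV. Complex I had 2 higher, 4 with the block, 1 without the length trend and 1 to 11 with 1 library left out. Complex II had 0, 1 without the length trend and new AML replicate 3, and 0 to 1 with 1 library left out. Complex III had 0, 1 with upper quartile factors, at 5 CPM and without the GC trend, 2 with DESeq2 and with the block, and 0 to 4 with 1 library left out. Complex IV had 1, 2 with the block, 0 without the length trend and 0 to 4 with 1 library left out. Complex V had 0 and 1 (Atp5b) with RLE, upper quartile or total-count scaling, no filter, 5 CPM, DESeq2, voom, the block, and without the GC or length trend, and 0 to 1 with 1 library left out.

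Among the other lists, carriers and ATP synthase genes outside the name rule higher were 1, 3 with upper quartile factors, 4 with DESeq2, 2 without the length trend and new AML replicate 3, and 0 to 4 with 1 library left out. Regulators lower were 2, 1 with upper quartile factors and at 5 CPM, and 1 to 2 with 1 library left out. Coenzyme Q genes higher were 1 and 0 to 2 with 1 library left out. Cristae genes higher were 2, 4 without the length trend and new AML replicate 3, and 0 to 3 with 1 library left out. Assembly factors were 0, 1 lower without the length trend, and 0 to 1 higher with 1 library left out. The median log2 fold change of the members stayed between 0.05 and 0.18. The cause of these shifts was not tested.

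The labels number the replicates and do not say that same-numbered samples are paired. The deviations of same-numbered libraries correlated from -0.07 to 0.20, with 1 of 4 pairs over 0.1, and 2 of 4 new AML libraries correlated best with their own number. With 4 weak correlations these values cannot decide whether the numbers pair the samples. The block moved the count of members higher from 3 to 9, beside 8.15% of all tested genes without it and 8.03% with it.

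These data rest on 4 libraries a group with no known batch. Leaving out new AML replicate 3 moves the count of members higher from 3 to 21, removing the length trend moves it from 3 to 2, both together give 5, and the groups differ in Y-linked and myeloid marker reads. At 7805544 to 9697777 counts a library, members under about 5 CPM such as Ndufb4, Cox7a1, Cox6a2 and Atp5l had standard errors of 0.27 to 0.39 on the log2 scale, against a median of 0.10, so changes of the size seen in other members were not detectable there.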
